A study of Homo sapiens with 12 samples.

Results

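The genes described here are 56 that encode the machinery of DNA replication: the factors that license origins, the fork enzymes, the suppliers of deoxynucleotides and histones, and a few regulators of the G1/S step. They were taken by symbol from a table of 58191 genes, and 56 of 56 were found. Before S phase, the origin recognition complex with CDC6 and CDT1 loads the MCM2 to MCM7 helicase onto DNA, a step that geminin blocks once replication has begun. CDC45 and the GINS complex then turn the helicase on, primase and the polymerases copy both strands behind it with the clamp PCNA, and ribonucleotide reductase and thymidylate synthase supply the building blocks. Many of these genes are targets of E2F transcription factors and are transcribed around the entry into S phase, so in blood cell lines their summed RNA is widely read as a proliferation signature.

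RNA sequencing had been done on 12 libraries in 4 groups of 3: K562 cells labelled wild type, K562 cells with EVI1 overexpression, and the same pair of groups labelled MOLM14. K562 is a BCR-ABL1 positive line from chronic myeloid leukaemia with erythroid features, MOLM14 is a line from acute monocytic leukaemia with a KMT2A fusion and an internal tandem duplication of FLT3, and EVI1 is a zinc finger transcription factor made from the MECOM gene. The labels name no construct, promoter, empty vector, clone, culture or time point, and no library carries a drug label although the study's title names venetoclax and capivasertib. Nothing states that the libraries came from separate cultures, so p-values measure the spread between these libraries, which may be technical. Levels are the authors' FPKM, fragments per kilobase of transcript and per 1000000 fragments, and each fold change is a difference of mean log2(FPKM + 1), which understates changes of low genes. A gene is said to rise or fall where its limma adjusted p was under 0.05, with the Benjamini-Hochberg adjustment over every gene tested.

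MECOM stood at 14.6, 11.2 and 10.9 FPKM in the K562 control libraries and at 25.9, 23.9 and 22.1 FPKM with EVI1, and at 9.66, 9.02 and 8.55 against 17.8, 18.0 and 16.9 FPKM under the MOLM14 label, so the EVI1 libraries were above every control of their label. The MOLM14 columns of the table could be matched to gene names only in the first 5510 rows, which hold 31 of the 56 genes. Markers in the libraries labelled MOLM14 were mixed. Of 9 usable monocytic markers, LYZ, SPI1, CD33 and CSF3R had means of 80.9, 44.2, 34.8 and 2.33 FPKM in control, above the 21.8, 28.8, 24.7 and 0.582 FPKM of K562 control, and 35.5, 29.7, 10.4 and 0.172 FPKM in EVI1 libraries. The other 5 (FLT3, MPO, HOXA9, CEBPE and VCAN) had means under 1 FPKM in both groups, and FLT3, which MOLM14 carries in mutant form, had means of 0 and 0.00305 FPKM. All 6 usable erythroid markers were at 1 FPKM or more, with GATA1 at 113 and 145 FPKM. These erythroid markers summed to 766 to 808 FPKM in control and 929 to 965 FPKM in EVI1 libraries, against 963 to 1001 and 942 to 997 FPKM for the same genes in K562. Across the usable rows, the K562 control profile had a Pearson r across genes of 0.973 with the control and 0.986 with the EVI1 libraries labelled MOLM14, and of 0.978 with the K562 EVI1 libraries; genes are not independent replicates. These 6 libraries are called the libraries labelled MOLM14 throughout, and which cells they came from was not tested. The depth estimated from the steps of low FPKM values was 39.0 to 69.3 times 1000000 fragments in K562 control and 59.6 to 79.7 times 1000000 in K562 EVI1 libraries, and it is unknown for the libraries labelled MOLM14.

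With EVI1 overexpression in K562, most of the replication genes that changed were lower. Of the 56, all of which passed the filter on low values, 29 fell, 4 rose and 23 were not called. Among all 13800 genes tested, 23.7% fell and 28.2% rose. The same shares stand beside the K562 counts by role below, which rest on 2 to 9 genes each and were not tested as groups. The largest falls were in ORC5, an origin recognition subunit, RRM2, the regulated subunit of ribonucleotide reductase, and SLBP, which binds the stem-loop of histone mRNAs, with log2 fold changes of -0.94, -0.80 and -0.79. The 4 that rose were the licensing factor CDT1 (0.55), the large reductase subunit RRM1 (0.46), the GINS subunit GINS4 (0.35) and the primase subunit PRIM1 (0.32). The median log2 fold change of the 56 was -0.21, against 0.0053 over all genes tested. In bulk RNA, fewer cells in S phase and less RNA of these genes per cell cannot be told apart.

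In 33 of the 56 genes every K562 EVI1 library lay below every control, in 7 every one lay above, and in 16 the groups overlapped; over all genes these shares were 28.2% below and 32.4% above. The number of falls was 18 when each library was scaled to a common sum, a scaling under which 65.6% of all called genes rose against 54.4% as deposited, and it was 19 without K562 control replicate 1. The falls of ORC5, RRM2 and SLBP and the rises of CDT1, RRM1, GINS4 and PRIM1 were among the 22 genes called under every alternative, whereas the falls of MCM3, MCM4, MCM6 and MCM7 were not. T and NK cell markers, mainly TRBC2, TRAC and CD3D, summed to 43.1 to 48.7 FPKM in K562 control and 102 to 109 FPKM in K562 EVI1 libraries. Of these 11 markers, 2 and 3 were at 1 FPKM or more and 2 and 1 at 0. Erythroid markers summed to 10138 to 10874 and 12906 to 16103 FPKM, with 16 of 16 at 1 FPKM or more in both. That sum is mostly globin RNA, and HBE1 alone had means of 3341 and 6720 FPKM. By call, 5 of the 16 rose (ITGA2B, NFE2, GFI1B, HBE1 and HBG1). Another 5 fell (TFRC, KLF1, HBZ, ALAS2 and EPOR), and 6 were not called. The part of both marker lists in these results was not tested.

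**Figure D1:**
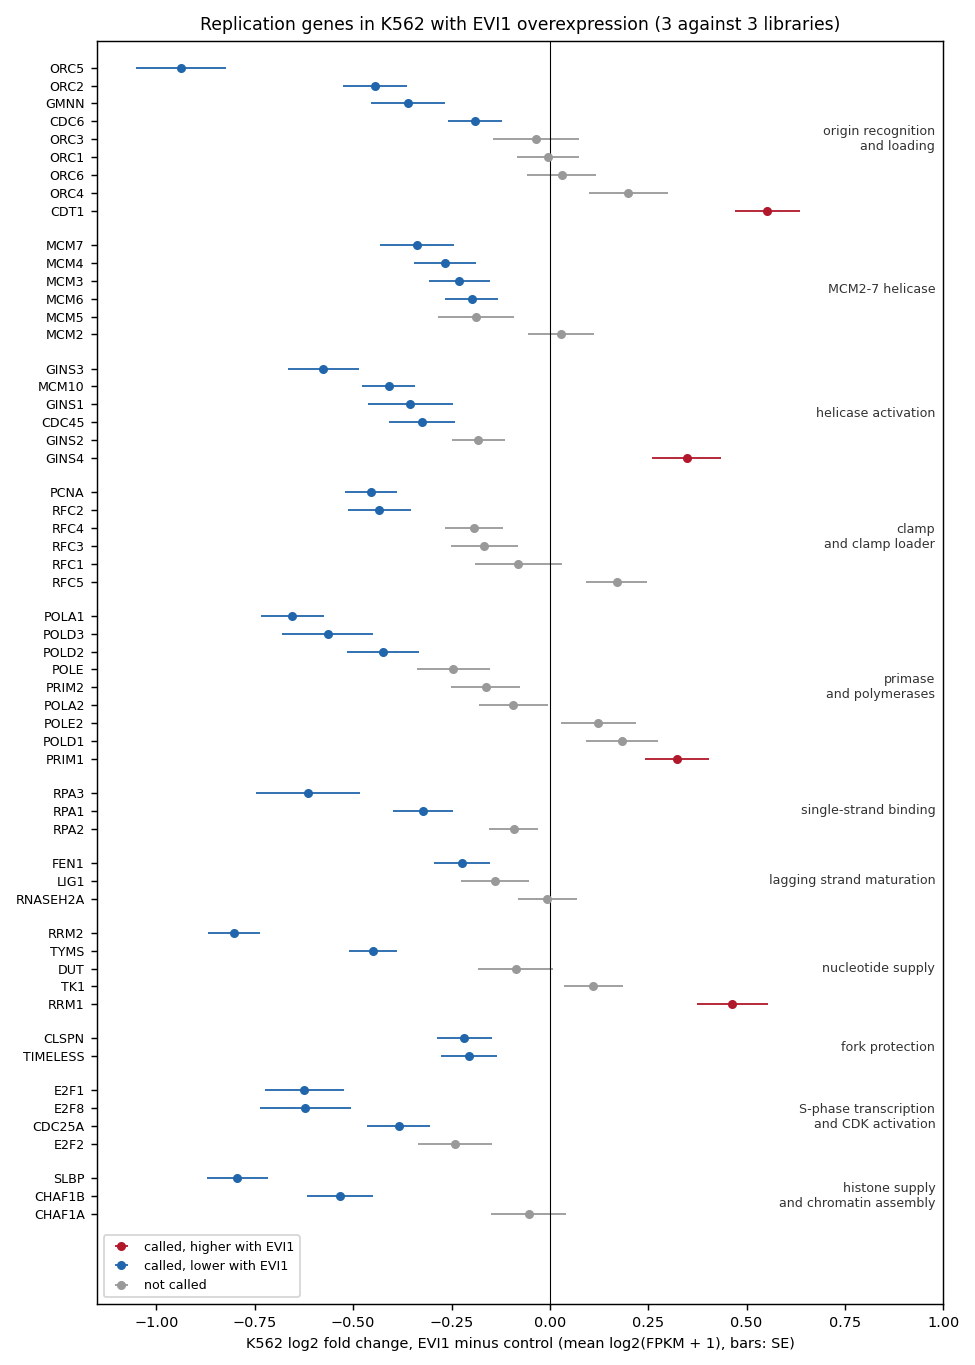
Log2 fold change of each of the 56 replication genes in K562, EVI1 minus control, on the log2(FPKM + 1) scale, with standard error bars from limma and 3 libraries per group; genes are grouped by role and coloured by call. Blue points (29 falls) run from -0.94 for ORC5 to -0.19 for CDC6, and the 4 red points (rises) are CDT1, RRM1, GINS4 and PRIM1.

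Promoter sequences of the genes were searched for E2F sites and CCAAT boxes. Many of these genes are E2F targets, so a high share of E2F sites goes with the choice of genes and is not a result apart from it. The RefSeq promoter table for GRCh38.p14, which runs from 250 bases before to 50 bases after each gene's start, held 49 of the 56. An E2F site, searched as TTTCCCGC, TTTCGCGC, TTTGCCGC or TTTGGCGC on both strands with overlapping matches counted, was found in 22 of the 49, or 44.9%, against 3.31% of all 35116 promoters of the same length and 5.48% of 9228 promoters of genes tested in K562. A CCAAT box, searched as CCAAT on both strands, was in 57.1% of the 49, 34.6% of all promoters and 37.5% of promoters of genes tested in K562. The promoters of the 4 largest falls and the 2 largest rises in K562 with an entry are printed so that genes that moved apart can be read side by side; MCM6 and E2F1 were added, after the motif counts were seen, as examples with several E2F sites. Capitals mark E2F sites and CCAAT boxes, on either strand. The intervals are ORC5 chr7:104207964-104208263 (minus strand), RRM2 chr2:10122489-10122788 (plus), SLBP chr4:1712270-1712569 (minus), POLA1 chrX:24693668-24693967 (plus), CDT1 chr16:88803539-88803838 (plus), RRM1 chr11:4094435-4094734 (plus), MCM6 chr2:135876394-135876693 (minus) and E2F1 chr20:33686336-33686635 (minus), each read 5′ to 3′ on the gene's strand.
ORC5: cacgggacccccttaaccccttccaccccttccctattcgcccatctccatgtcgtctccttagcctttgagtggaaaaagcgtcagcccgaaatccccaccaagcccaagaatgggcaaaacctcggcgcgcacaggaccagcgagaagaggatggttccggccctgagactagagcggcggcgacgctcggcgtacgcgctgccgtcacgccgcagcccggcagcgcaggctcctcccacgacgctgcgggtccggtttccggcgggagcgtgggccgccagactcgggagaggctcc
RRM2: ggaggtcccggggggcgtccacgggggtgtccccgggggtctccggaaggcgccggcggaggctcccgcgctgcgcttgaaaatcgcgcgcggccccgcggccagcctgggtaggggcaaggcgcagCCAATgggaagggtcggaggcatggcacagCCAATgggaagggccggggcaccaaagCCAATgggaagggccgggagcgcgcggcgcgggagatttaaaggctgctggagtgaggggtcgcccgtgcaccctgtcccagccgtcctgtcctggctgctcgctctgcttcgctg
SLBP: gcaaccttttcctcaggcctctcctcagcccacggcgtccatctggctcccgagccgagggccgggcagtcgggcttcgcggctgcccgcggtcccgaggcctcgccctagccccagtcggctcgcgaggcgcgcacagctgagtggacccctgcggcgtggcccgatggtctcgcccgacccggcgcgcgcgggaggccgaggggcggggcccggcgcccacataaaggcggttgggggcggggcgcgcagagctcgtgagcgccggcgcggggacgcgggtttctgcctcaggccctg
POLA1: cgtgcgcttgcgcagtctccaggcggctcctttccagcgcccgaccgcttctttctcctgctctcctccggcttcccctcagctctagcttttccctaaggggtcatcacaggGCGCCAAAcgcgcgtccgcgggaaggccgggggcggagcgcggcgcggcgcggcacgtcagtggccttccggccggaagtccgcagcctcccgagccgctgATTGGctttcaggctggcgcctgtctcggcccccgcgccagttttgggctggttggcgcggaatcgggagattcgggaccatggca
CDT1: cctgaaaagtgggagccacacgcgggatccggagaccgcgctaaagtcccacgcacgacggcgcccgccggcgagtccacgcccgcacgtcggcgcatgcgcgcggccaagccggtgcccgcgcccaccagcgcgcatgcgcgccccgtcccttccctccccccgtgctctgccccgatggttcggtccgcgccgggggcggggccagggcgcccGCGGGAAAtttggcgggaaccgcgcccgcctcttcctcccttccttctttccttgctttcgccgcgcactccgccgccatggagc
RRM1: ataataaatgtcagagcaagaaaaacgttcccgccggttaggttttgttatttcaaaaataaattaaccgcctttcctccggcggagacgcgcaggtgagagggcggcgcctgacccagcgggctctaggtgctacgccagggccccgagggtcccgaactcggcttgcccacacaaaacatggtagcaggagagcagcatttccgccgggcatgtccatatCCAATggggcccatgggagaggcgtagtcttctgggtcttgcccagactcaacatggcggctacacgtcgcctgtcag
MCM6: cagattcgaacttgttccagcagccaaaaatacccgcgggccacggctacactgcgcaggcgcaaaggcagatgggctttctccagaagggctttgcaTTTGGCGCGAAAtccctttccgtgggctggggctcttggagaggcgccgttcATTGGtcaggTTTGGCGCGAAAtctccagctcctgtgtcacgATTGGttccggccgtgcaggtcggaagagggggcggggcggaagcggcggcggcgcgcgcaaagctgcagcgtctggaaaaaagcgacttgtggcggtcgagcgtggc
E2F1: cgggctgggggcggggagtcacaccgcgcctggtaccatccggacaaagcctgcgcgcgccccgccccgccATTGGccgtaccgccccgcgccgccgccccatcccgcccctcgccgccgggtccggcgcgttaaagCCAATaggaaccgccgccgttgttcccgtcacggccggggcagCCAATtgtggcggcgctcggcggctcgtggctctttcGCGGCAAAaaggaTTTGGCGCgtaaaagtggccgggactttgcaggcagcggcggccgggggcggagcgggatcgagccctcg

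By these letters RRM2, which fell, held 3 CCAAT boxes and no E2F match, and RRM1, which rose, held 1 CCAAT box at -28 from the start. POLA1, which fell, and CDT1, which rose, each held 1 E2F site. ORC5 and SLBP held neither motif, while MCM6 held 4 E2F sites in 2 overlapping pairs. Across the 49, an E2F site was in 12 of 25 promoters of genes that fell, 1 of 3 of genes that rose and 9 of 21 of genes not called in K562, while CCAAT at 2 or more places was in 13 of 25, 0 of 3 and 3 of 21, and in 10.8% of all promoters. The median K562 log2 fold change was -0.22 with an E2F site and -0.19 without. In the libraries labelled MOLM14 an E2F site was in 10 of 17 promoters of genes that rose and 2 of 9 of genes not called, with a median log2 fold change of 0.33 over 12 genes with a site and 0.17 over 14 without. None of these splits was tested. These matches describe the windows and do not show binding.

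Origin licensing moved in both directions in K562. Of its 9 genes, 1 rose (11.1%), 4 fell (44.4%) and 4 were not called, where 28.2% of all genes tested rose and 23.7% fell. CDT1, which brings the MCM complex to origins, went up while GMNN, which encodes its inhibitor geminin, and CDC6, its loading partner, went down. ORC5 (ENSG00000164815.10, chr7:104126341-104208047, minus strand) stood at 35.1, 34.8 and 33.1 FPKM in K562 control and 17.0, 14.9 and 20.9 FPKM in K562 EVI1 libraries. ORC5 had a log2 fold change of -0.94 (adjusted p = 2.6e-04, SE 0.12). CDT1 (ENSG00000167513.8, chr16:88803213-88809258, plus strand) stood at 64.8, 65.3 and 61.3 FPKM in K562 control and 89.7, 105 and 88.4 FPKM in K562 EVI1 libraries. CDT1 had a log2 fold change of 0.55 (adjusted p = 7.5e-04, SE 0.083). In both genes the groups were far from touching, on opposite sides. ORC2, another origin recognition subunit, stood at 16.9, 17.2 and 17.7 FPKM in K562 control and 13.5, 11.7 and 12.2 FPKM in K562 EVI1 libraries. ORC2 had a log2 fold change of -0.45 (adjusted p = 0.00222, SE 0.082), again without overlap.

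Geminin was the most abundant licensing RNA in K562 control cells, and it moved in opposite directions under the labels. GMNN stood at 118, 110.5 and 124 FPKM in K562 control and 96.8, 80.1 and 98.2 FPKM in K562 EVI1 libraries. GMNN had a log2 fold change of -0.36 (adjusted p = 0.0121, SE 0.094), a fall that was not called with a common sum, where adjusted p was 0.0923. Under the MOLM14 label GMNN had 106, 104 and 98.3 FPKM in control and 162, 151 and 150.1 FPKM in EVI1 libraries, with a log2 fold change of 0.58 (adjusted p = 1.2e-04, SE 0.054). All 3 EVI1 libraries were below the controls in K562 and above them in the libraries labelled MOLM14. CDC6 had the same pattern at a smaller size: it lay at 49.8 to 53.1 FPKM in control and 42.9 to 46.6 FPKM with EVI1 in K562, and 28.3 to 31.6 against 36.9 to 41.2 FPKM under the MOLM14 label. Its log2 fold changes were -0.19 (adjusted p = 0.0467, SE 0.069) and 0.37 (adjusted p = 0.00309, SE 0.069), and the K562 fall lost its call with a common sum (adjusted p = 0.366). Among the other origin recognition genes, ORC6 rose under the MOLM14 label (log2 fold change 0.15 (adjusted p = 0.0356, SE 0.049)), a call lost with common-sum scaling. Its levels were 34.2 to 38.8 FPKM in control and 34.3 to 40.5 FPKM with EVI1 in K562, and 37.3 to 38.6 against 41.8 to 42.8 FPKM under the MOLM14 label, where the K562 groups overlapped. ORC1, ORC4 and ORC3, further subunits of the complex, were not called anywhere they could be tested. ORC1 lay at 38.1 to 40.5 FPKM in control and 36.9 to 42.8 FPKM with EVI1 in K562, and 35.9 to 37.1 against 35.1 to 37.3 FPKM under the MOLM14 label. ORC4 lay at 29.7 to 36.7 FPKM in control and 35.3 to 41.5 FPKM with EVI1 in K562, and 50.7 to 56.3 against 54.1 to 68.6 FPKM under the MOLM14 label. ORC3 was measured in K562 alone, at 25.9 to 33.3 FPKM in control and 25.5 to 28.8 FPKM with EVI1, with overlapping groups. ORC2 was not called under the MOLM14 label, at 18.8 to 18.9 FPKM in control and 18.7 to 23.8 FPKM in EVI1 libraries.

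The helicase genes were among the most abundant of the 56, and those whose names could be used under both labels differed most clearly in MCM3 and MCM4. In K562, MCM3, MCM4, MCM6 and MCM7 fell and MCM2 and MCM5 were not called, but each of these 4 falls lost its call under some alternative, common-sum scaling among them. In the libraries labelled MOLM14, MCM2, MCM3, MCM4 and MCM6 rose and MCM5 was not called. The 6 proteins form a ring with 1 copy of each, yet their RNA levels per length spanned 4.92-fold in K562 control, from MCM2 at 77.5 to MCM4 at 381 FPKM.

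MCM4 stood at 392, 385 and 367 FPKM in K562 control and 300.2, 347 and 305 FPKM in K562 EVI1 libraries. MCM4 had a log2 fold change of -0.27 (adjusted p = 0.0219, SE 0.079). Under the MOLM14 label it had 160.2, 181 and 167 FPKM in control and 271, 306 and 276 FPKM in EVI1 libraries, with a log2 fold change of 0.74 (adjusted p = 1.1e-04, SE 0.068). The K562 groups came close without overlap, whereas in the libraries labelled MOLM14 the lowest EVI1 library was far above the highest control. MCM3 stood at 184, 178 and 173 FPKM in K562 control and 144, 167 and 145 FPKM in K562 EVI1 libraries. MCM3 had a log2 fold change of -0.23 (adjusted p = 0.0365, SE 0.078). With the MOLM14 label, MCM3 had 103, 106 and 103 FPKM in control and 163, 174 and 165 FPKM in EVI1 libraries, with a log2 fold change of 0.68 (adjusted p = 3.2e-05, SE 0.047). MCM3, like MCM4, was separated in opposite directions under the labels. MCM6 lay at 80.5 to 85.0 FPKM in control and 70.2 to 76.3 FPKM with EVI1 in K562, and 75.7 to 80.3 against 91.7 to 96.9 FPKM under the MOLM14 label, with no overlap under either label. Its log2 fold changes were -0.20 (adjusted p = 0.0362, SE 0.067) in K562 and 0.27 (adjusted p = 0.00262, SE 0.050) in the libraries labelled MOLM14. MCM7, measured in K562 alone, stood at 376, 391 and 323 FPKM in K562 control and 268, 308 and 284 FPKM in K562 EVI1 libraries. MCM7 had a log2 fold change of -0.34 (adjusted p = 0.0158, SE 0.094). Its exons overlap those of AP4M1 on the opposite strand, and without a stated strand setting reads of the overlap cannot be assigned.

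MCM2 and MCM5 were the helicase genes without a call in K562. MCM2 lay at 72.3 to 80.2 FPKM in control and 72.4 to 85.4 FPKM with EVI1 in K562, and 51.1 to 54.8 against 61.9 to 68.5 FPKM under the MOLM14 label. Its groups overlapped in K562 and were separate under the MOLM14 label, where it rose (log2 fold change 0.27 (adjusted p = 0.00691, SE 0.060)). MCM5 lay at 86.6 to 106 FPKM in control and 81.0 to 91.6 FPKM with EVI1 in K562, and 45.1 to 53.7 against 50.4 to 55.6 FPKM under the MOLM14 label, overlapping under both labels. Its log2 fold changes were -0.19 (adjusted p = 0.135, SE 0.096) and 0.15 (adjusted p = 0.154, SE 0.079). The difference of its effects passed the test (0.33 (adjusted p = 0.0331, SE 0.13)) but not with a common sum, where adjusted p was 0.169.

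**Figure D2:**
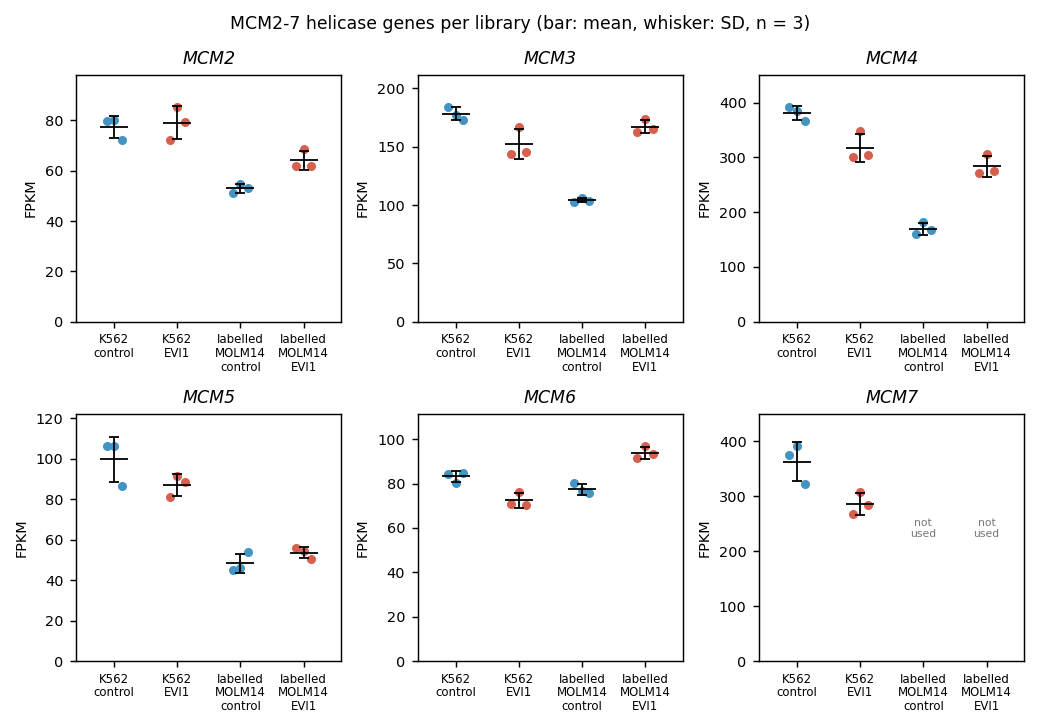
FPKM of the 6 helicase genes in each library (points), with the mean and SD of 3 libraries, for K562 and the libraries labelled MOLM14; blue is control and red is EVI1. MCM4 and MCM3 lay lower with EVI1 in K562 and higher with EVI1 under the MOLM14 label, and MCM7 has no usable name in the libraries labelled MOLM14.

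Among the activators of the loaded helicase, 1 rose, 4 fell and 1 was not called in K562. CDC45, which joins the helicase to make it active, was by far the most abundant, 16.9 times the level of GINS3 per length in K562 control. GINS3 stood at 16.9, 15.0 and 14.2 FPKM in K562 control and 9.50, 10.3 and 10.1 FPKM in K562 EVI1 libraries. GINS3 had a log2 fold change of -0.58 (adjusted p = 9.4e-04, SE 0.090). MCM10, which is needed to start unwinding, stood at 31.2, 31.2 and 32.0 FPKM in K562 control and 22.8, 24.0 and 23.5 FPKM in K562 EVI1 libraries. MCM10 had a log2 fold change of -0.41 (adjusted p = 0.00119, SE 0.067). Both were separated between the groups. GINS4, of the same complex of 4 subunits as GINS3, went the other way, at 22.1, 22.5 and 23.4 FPKM in K562 control and 30.9, 30.8 and 25.8 FPKM in K562 EVI1 libraries. GINS4 had a log2 fold change of 0.35 (adjusted p = 0.0107, SE 0.088). Exons of unnamed genes on the opposite strand overlap part of it. GINS2, the remaining gene without a call, lay at 29.6 to 31.8 FPKM in control and 26.6 to 27.3 FPKM with EVI1 (adjusted p = 0.0511).

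MCM10, CDC45 and GINS1 rose under the MOLM14 label and fell in K562. The libraries labelled MOLM14 had GINS1 at 13.4, 13.1 and 11.6 FPKM in control and 21.7, 22.7 and 21.9 FPKM in EVI1 libraries, with a log2 fold change of 0.75 (adjusted p = 1.3e-04, SE 0.073), the largest rise of the 31 genes there. In K562 it lay at 15.0 to 16.6 FPKM in control and 10.3 to 13.7 FPKM with EVI1 (log2 fold change -0.35 (adjusted p = 0.0241, SE 0.11)). CDC45 stood at 271, 273 and 236 FPKM in K562 control and 197, 222 and 202 FPKM in K562 EVI1 libraries. CDC45 had a log2 fold change of -0.32 (adjusted p = 0.0115, SE 0.084). With the MOLM14 label, CDC45 had 162, 167 and 151 FPKM in control and 201, 217 and 212 FPKM in EVI1 libraries, with a log2 fold change of 0.39 (adjusted p = 9.0e-04, SE 0.056). The EVI1 libraries of CDC45 lay below every control in K562 and above every control under the other label. MCM10 lay at 26.5 to 29.5 FPKM in control and 35.1 to 39.2 FPKM with EVI1 under the MOLM14 label (log2 fold change 0.40 (adjusted p = 0.00205, SE 0.068)). The K562 falls of CDC45 and GINS1 were not called with a common sum, where adjusted p was 0.0559 and 0.137, and that of MCM10 was called under every alternative.

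The sliding clamp and a loader subunit fell in K562. PCNA, the ring that holds polymerases on DNA, stood at 187, 175 and 191 FPKM in K562 control and 136, 131 and 134 FPKM in K562 EVI1 libraries. PCNA had a log2 fold change of -0.45 (adjusted p = 6.4e-04, SE 0.066). RFC2, a small subunit of the complex that loads it, stood at 81.1, 85.9 and 73.7 FPKM in K562 control and 55.8, 61.8 and 59.6 FPKM in K562 EVI1 libraries. RFC2 had a log2 fold change of -0.43 (adjusted p = 0.00226, SE 0.080). Neither gene's groups overlapped. In the libraries labelled MOLM14, RFC2 had 50.7, 54.3 and 53.0 FPKM in control and 72.1, 81.2 and 72.3 FPKM in EVI1 libraries, with a log2 fold change of 0.50 (adjusted p = 4.7e-04, SE 0.063), so its order was turned around. RFC5, another small loader subunit, rose there (log2 fold change 0.27 (adjusted p = 0.0106, SE 0.066)). Its levels were 46.4 to 54.0 FPKM in control and 54.8 to 56.4 FPKM with EVI1 in K562, and 54.2 to 56.6 against 61.4 to 71.0 FPKM under the MOLM14 label. The EVI1 libraries lay above every control in K562 too, without a call (adjusted p = 0.0957). RFC5 shares exon bases with WSB2 on the opposite strand. RFC1, the large loader subunit, was not called under either label, at 23.7 to 32.0 FPKM in control and 25.9 to 28.2 FPKM with EVI1 in K562, and 44.7 to 46.3 against 38.4 to 45.5 FPKM under the MOLM14 label. RFC4 and RFC3 were not called in K562, with adjusted p of 0.0542 and 0.135 and log2 fold changes of -0.19 and -0.17.

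Subunits of the same polymerase complex did not move together in K562. Of the 9 genes of primase and the polymerases, 1 rose (11.1%), 3 fell (33.3%) and 5 were not called. Among all genes tested 28.2% rose and 23.7% fell, so these counts alone set the 9 little apart. POLA1, the catalytic subunit of polymerase alpha, fell while PRIM1, the catalytic primase subunit bound to it, rose, and their partners POLA2 and PRIM2 were not called. POLA1 stood at 18.7, 17.9 and 19.9 FPKM in K562 control and 11.8, 11.9 and 11.1 FPKM in K562 EVI1 libraries. POLA1 had a log2 fold change of -0.65 (adjusted p = 2.4e-04, SE 0.079). POLD3 and POLD2, accessory subunits of polymerase delta, fell, and POLD1, its catalytic subunit, was not called. POLD3 stood at 13.9, 11.3 and 15.3 FPKM in K562 control and 8.28, 9.42 and 8.53 FPKM in K562 EVI1 libraries. POLD3 had a log2 fold change of -0.56 (adjusted p = 0.00394, SE 0.12). POLD2, the most abundant of the 9, stood at 204, 227 and 191 FPKM in K562 control and 144, 168 and 150.5 FPKM in K562 EVI1 libraries. POLD2 had a log2 fold change of -0.42 (adjusted p = 0.00466, SE 0.090). All 3 had K562 groups that did not overlap. PRIM1 stood at 45.7, 43.9 and 51.1 FPKM in K562 control and 62.3, 57.9 and 56.4 FPKM in K562 EVI1 libraries. PRIM1 had a log2 fold change of 0.32 (adjusted p = 0.0101, SE 0.081), also without overlap between the groups, although its exons share bases with NACA on the same strand.

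Under the MOLM14 label POLA1, POLD1 and POLE2 rose and the other 3 of 6 usable polymerase genes were not called. Of all rows tested under that label 27.4% rose and 26.8% fell, and a count over 6 genes was not tested as a group. POLA1 had 20.5, 18.8 and 18.0 FPKM in control and 24.2, 24.4 and 24.4 FPKM in EVI1 libraries, with a log2 fold change of 0.33 (adjusted p = 0.00374, SE 0.065). POLE2, an accessory subunit of polymerase epsilon, lay at 21.3 to 24.8 FPKM in control and 24.1 to 28.6 FPKM with EVI1 in K562, and 16.1 to 19.1 against 22.7 to 25.7 FPKM under the MOLM14 label, with a log2 fold change of 0.44 (adjusted p = 0.00360, SE 0.086) under the latter. POLD1 lay at 90.04 to 105 FPKM in control and 106 to 125 FPKM with EVI1 in K562, and 59.1 to 69.0 against 74.2 to 87.2 FPKM under the MOLM14 label, with a log2 fold change of 0.30 (adjusted p = 0.0167, SE 0.082) under the latter, a call lost with no filter on low values (adjusted p = 0.06000). POLE2 overlapped between the groups in K562, whereas the EVI1 libraries of POLD1 were above every control under both labels, without a call in K562 (adjusted p = 0.126). POLD2, POLD3 and POLA2 overlapped between the groups there. POLD2 lay at 117 to 127 FPKM in control and 117 to 135 FPKM with EVI1 and POLD3 at 17.8 to 19.0 FPKM in control and 17.4 to 21.2 FPKM with EVI1. POLA2 lay at 31.7 to 36.5 FPKM in control and 29.99 to 34.7 FPKM with EVI1 in K562, and 32.5 to 39.1 against 36.4 to 40.2 FPKM under the MOLM14 label, without a call under either. POLE, the catalytic subunit of polymerase epsilon, missed the threshold in K562 with overlapping groups (log2 fold change -0.25 (adjusted p = 0.0526, SE 0.092)), as did PRIM2 (-0.16 (adjusted p = 0.152, SE 0.088)).

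The single-strand binding complex fell in K562 in 2 of its 3 subunits. RPA3, its small subunit, stood at 70.2, 59.3 and 84.3 FPKM in K562 control and 46.8, 50.4 and 40.5 FPKM in K562 EVI1 libraries. RPA3 had a log2 fold change of -0.61 (adjusted p = 0.00499, SE 0.13). RPA1, the large DNA-binding subunit, stood at 53.3, 54.5 and 52.8 FPKM in K562 control and 38.9, 44.8 and 44.3 FPKM in K562 EVI1 libraries. RPA1 had a log2 fold change of -0.32 (adjusted p = 0.00770, SE 0.076). Both were separated between the groups, though RPA3 had the widest spread of the 56 genes in K562 control, with a coefficient of variation of 17.6% against a median of 5.84%. RPA2, the middle subunit, was not called under either label, at 95.0 to 98.6 FPKM in control and 88.8 to 93.3 FPKM with EVI1 in K562, and 92.2 to 95.9 against 89.6 to 94.0 FPKM under the MOLM14 label. RPA3 was not called under the MOLM14 label, at 51.7 to 59.5 FPKM in control and 58.8 to 66.5 FPKM with EVI1.

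Of the enzymes that finish the lagging strand, FEN1 fell in K562 and LIG1 and RNASEH2A were not called. FEN1, the nuclease that trims flaps between fragments, stood at 140.4, 139 and 128 FPKM in K562 control and 110.1, 119 and 120.3 FPKM in K562 EVI1 libraries. FEN1 had a log2 fold change of -0.22 (adjusted p = 0.0289, SE 0.071). This fall lost its call with a common sum, where adjusted p was 0.210, and exons of TMEM258 and FADS2 overlap the gene. LIG1, the ligase that seals the fragments, lay at 44.0 to 50.7 FPKM in control and 39.5 to 46.2 FPKM with EVI1 in K562, and 29.01 to 33.9 against 33.4 to 41.3 FPKM under the MOLM14 label. Its log2 fold changes were -0.14 (adjusted p = 0.204, SE 0.086) in K562 and 0.27 (adjusted p = 0.0413, SE 0.094) under the MOLM14 label, a rise whose groups still overlapped and whose call was lost with a common sum. RNASEH2A, the catalytic subunit of the nuclease that removes RNA from DNA, lay at 98.4 to 109 FPKM in control and 100.9 to 112 FPKM with EVI1 in K562, and 61.8 to 70.4 against 71.0 to 72.5 FPKM under the MOLM14 label, with no call.

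The subunits of ribonucleotide reductase, which makes deoxynucleotides, moved apart in K562: RRM2 fell and RRM1 rose. RRM2 (ENSG00000171848.14, chr2:10120698-10131419, plus strand) stood at 201, 195 and 200.03 FPKM in K562 control and 107, 118 and 116 FPKM in K562 EVI1 libraries. RRM2 had a log2 fold change of -0.80 (adjusted p = 3.2e-05, SE 0.067). RRM1 (ENSG00000167325.14, chr11:4094707-4138876, plus strand) stood at 83.1, 88.8 and 88.5 FPKM in K562 control and 113, 137 and 112 FPKM in K562 EVI1 libraries. RRM1 had a log2 fold change of 0.46 (adjusted p = 0.00295, SE 0.090). Neither pair of groups overlapped, and the mean RRM2 level passed from above that of RRM1 per length in control (199 against 86.8 FPKM) to below it with EVI1 (114 against 121 FPKM). TYMS, thymidylate synthase, fell as well, at 239, 229.9 and 233 FPKM in K562 control and 171, 170.2 and 172 FPKM in K562 EVI1 libraries. TYMS had a log2 fold change of -0.45 (adjusted p = 4.5e-04, SE 0.061), and ENOSF1 and TYMSOS overlap its exons on the opposite strand. TK1, the thymidine salvage kinase, lay at 182, 184 and 182 FPKM in control and 188, 217 and 188 FPKM in EVI1 libraries without a call (adjusted p = 0.249). DUT, which clears dUTP, was not called either, at 129 to 159 FPKM in control and 122 to 137 FPKM with EVI1. None of these 5 genes has a usable name in the libraries labelled MOLM14.

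**Figure D3:**
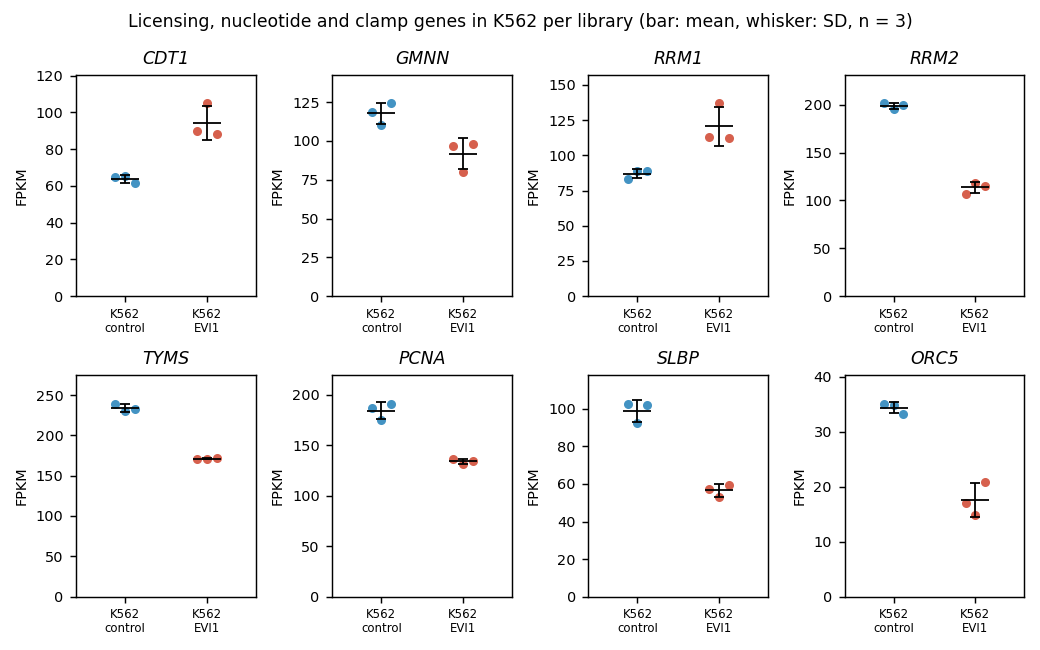
FPKM of 8 licensing, nucleotide, clamp and histone supply genes in each K562 library (points), with the mean and SD of 3 libraries; blue is control and red is EVI1. CDT1 and RRM1 lay higher with EVI1 in every library, and GMNN, RRM2, TYMS, PCNA, SLBP and ORC5 lay lower.

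Both fork protection genes fell in K562. CLSPN, the claspin adaptor that couples fork speed to checkpoint signalling, stood at 33.4, 30.5 and 31.9 FPKM in K562 control and 27.7, 27.7 and 26.6 FPKM in K562 EVI1 libraries. CLSPN had a log2 fold change of -0.22 (adjusted p = 0.0305, SE 0.070). TIMELESS, a subunit of the fork protection complex, stood at 40.1, 38.9 and 40.3 FPKM in K562 control and 32.5, 36.3 and 34.5 FPKM in K562 EVI1 libraries. TIMELESS had a log2 fold change of -0.20 (adjusted p = 0.0387, SE 0.071). Neither overlapped between the groups, and both lost their calls with a common sum, where adjusted p was 0.222 and 0.208. In the libraries labelled MOLM14 CLSPN rose, at 21.3 to 24.2 FPKM in control and 31.9 to 32.7 FPKM with EVI1 (log2 fold change 0.48 (adjusted p = 5.9e-04, SE 0.064)). TIMELESS was at 38.1 to 40.8 FPKM in control and 37.4 to 40.1 FPKM with EVI1 there, with no call.

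Of the 4 regulators of S-phase entry 3 fell in K562, among them E2F8, which had the lowest level of the 56 genes there. E2F1, an activating E2F, stood at 19.0, 17.1 and 15.1 FPKM in K562 control and 10.2, 11.5 and 10.4 FPKM in K562 EVI1 libraries. E2F1 had a log2 fold change of -0.62 (adjusted p = 0.00110, SE 0.10). E2F8, an atypical E2F that represses the same targets, stood at 7.92, 6.29 and 7.96 FPKM in K562 control and 4.32, 4.95 and 4.05 FPKM in K562 EVI1 libraries. E2F8 had a log2 fold change of -0.62 (adjusted p = 0.00247, SE 0.12). CDC25A, the phosphatase that activates cyclin-dependent kinases at G1/S, stood at 36.5, 31.3 and 32.5 FPKM in K562 control and 26.2, 25.2 and 24.6 FPKM in K562 EVI1 libraries. CDC25A had a log2 fold change of -0.38 (adjusted p = 0.00422, SE 0.080). The activator and the repressor thus fell by a like amount, and all 3 genes were separated between the groups. E2F1 rose in the libraries labelled MOLM14, at 9.83, 10.7 and 9.70 FPKM in control and 12.1, 12.5 and 14.0 FPKM in EVI1 libraries, with a log2 fold change of 0.33 (adjusted p = 0.0109, SE 0.081) and no overlap. E2F2, another activating E2F, was not called under either label: it lay at 9.90 to 11.7 FPKM in control and 8.74 to 9.71 FPKM with EVI1 in K562, and 9.40 to 11.1 against 10.1 to 11.4 FPKM under the MOLM14 label. Its log2 fold changes were -0.24 (adjusted p = 0.0575, SE 0.093) and 0.071 (adjusted p = 0.521, SE 0.087). The difference of its effects passed the test (0.31 (adjusted p = 0.0406, SE 0.13)) and failed it with a common sum (adjusted p = 0.194).

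Histone supply and chromatin assembly fell in 2 of 3 genes. SLBP (ENSG00000163950.12, chr4:1692800-1712555, minus strand) stood at 103, 92.3 and 102 FPKM in K562 control and 57.5, 53.0 and 59.6 FPKM in K562 EVI1 libraries. SLBP had a log2 fold change of -0.79 (adjusted p = 7.3e-05, SE 0.077). CHAF1B, a subunit of the CAF-1 chaperone that places histones behind the fork, stood at 20.1, 21.5 and 22.4 FPKM in K562 control and 14.5, 15.5 and 13.5 FPKM in K562 EVI1 libraries. CHAF1B had a log2 fold change of -0.53 (adjusted p = 1.0e-03, SE 0.084), and MORC3 shares exon bases with it on the same strand. Both were separated between the groups. CHAF1A, the large CAF-1 subunit, was not called, at 51.1 to 64.7 FPKM in control and 52.0 to 57.5 FPKM with EVI1 with overlapping groups (log2 fold change -0.054 (adjusted p = 0.658, SE 0.095)).

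In the libraries labelled MOLM14 the replication genes that changed were all higher with EVI1. Of the 31 with usable names, 18 rose, 0 fell and 13 were not called by limma, against 27.4% of all 13315 rows tested that rose and 26.8% that fell. At an unadjusted p under 0.05, 18 of the 31 were higher and 0 were lower, where 7976 of all 13315 rows passed in either direction. The EVI1 libraries lay above every control in 18 genes, a separation seen in 30.9% of all rows, and below every control in 0 (30.8%). The median log2 fold change of the 31 was 0.27, against -0.0066 over all rows tested. The largest rises were GINS1 (0.75), MCM4 (0.74), MCM3 (0.68) and GMNN (0.58). Of the 9 usable monocytic markers 4 were at 1 FPKM or more in control and 3 in EVI1 libraries labelled MOLM14, with sums of 162 to 164 and 76.3 to 77.4 FPKM, and their part in these results, like that of the erythroid markers, was not tested.

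The EVI1 effect on these genes differed between the labels. The difference, labelled MOLM14 effect minus K562 effect, was called above 0 in 20 of 31 genes and below 0 in 0, against 34.1% and 30.8% of the 3697 genes tested, and its median was 0.47, against 0.038 over all of these. At an unadjusted p under 0.05 the difference was above 0 in 21 genes and below 0 in 0, where 2509 of all 3697 genes passed in either direction. The largest differences were in GINS1 at 1.11 (adjusted p = 4.7e-06, SE 0.13), MCM4 at 1.01 (adjusted p = 1.0e-06, SE 0.10) and POLA1 at 0.99 (adjusted p = 9.8e-07, SE 0.10), on the log2 scale. Genes of most steps passed this test. They included GMNN (0.94) and CDC6 (0.56) in licensing, MCM3 (0.91) and MCM6 (0.47) in the helicase, RFC2 (0.94) in the clamp loader, POLD3 (0.61) and POLD2 (0.47) in polymerase delta, RPA3 (0.77) in single-strand binding, LIG1 (0.41) in lagging strand maturation and CLSPN (0.70) in fork protection. E2F1 had a difference of 0.95. The label goes with the cell source, the set of libraries and the normalisation run, which cannot be told apart.

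By calls, 12 of the 31 fell in K562 and rose under the MOLM14 label: MCM3, MCM4, MCM6, MCM10, CDC45, GINS1, CDC6, GMNN, POLA1, RFC2, CLSPN and E2F1. Among all genes tested under both labels 13.6% had that pair of calls, 10.7% had the opposite pair, 4.79% rose and 3.95% fell under both. The 12 came down to 4 with a common sum (E2F1, MCM10, POLA1 and RFC2; 8.93% of all genes), to 5 without K562 control replicate 1 (10.7%) and to 7 without K562 EVI1 replicate 1 (11.7%) or replicate 3 (11.5%). As deposited, none of the 31 was called in the same direction under both labels. TIMELESS, ORC2, POLD3, POLD2 and RPA3 fell in K562 without a call under the MOLM14 label, and MCM2, RFC5, LIG1, ORC6, POLD1 and POLE2 rose under the MOLM14 label without a call in K562. The remaining 8 were called under neither: MCM5, E2F2, RFC1, RNASEH2A, ORC1, ORC4, POLA2 and RPA2. By sign alone 21 of 31 were lower in K562 and higher under the MOLM14 label, against 33.2% of all genes tested. The 3 genes with a difference below 0, without a call, were RFC1, ORC1 and ORC4.

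**Figure D4:**
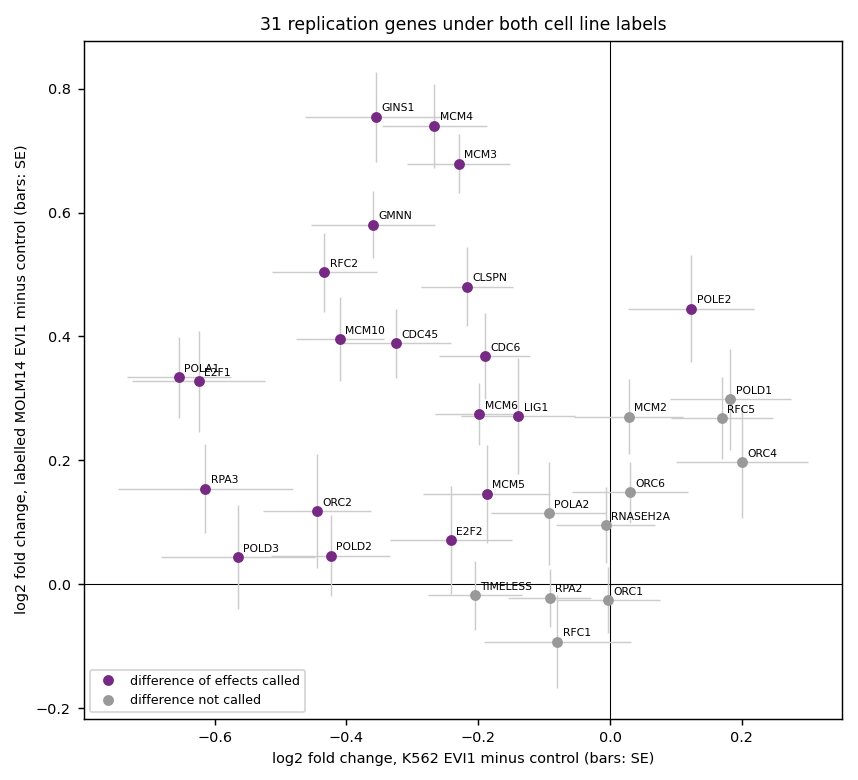
Log2 fold change with EVI1 of 31 replication genes in K562 (horizontal axis) and in the libraries labelled MOLM14 (vertical axis), on the log2(FPKM + 1) scale, with standard error bars from limma; purple marks the 20 genes whose difference of effects was called. Of the 31 points, 21 lie in the upper left part, lower in K562 and higher under the MOLM14 label, and GINS1, MCM4, MCM3 and GMNN reach highest.

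Set side by side, most of the 31 genes had lower levels in the control libraries labelled MOLM14 than in K562 control, and higher levels in the EVI1 libraries labelled MOLM14 than in K562 EVI1. No test was made of this, because the columns of the labels appear to come from separate normalisations. The ratio of labelled MOLM14 control to K562 control had a median of 0.803 over the 31 genes, with 23 of 31 below 1. Over all genes tested under both labels its median was 1.05, with 1713 of 3697 below 1. For the EVI1 libraries the median ratio was 1.18, with 10 of 31 below 1. Over all genes that median was 1.05, with 1720 of 3697 below 1. CDC45, for example, had means of 259.9 FPKM in K562 control, 207 in K562 EVI1, 160.3 in labelled MOLM14 control and 210.0 FPKM in labelled MOLM14 EVI1 libraries. The order of the genes by level was much the same in both controls, with a Pearson r of 0.939 across the 31 genes on the log2 scale, a description in which the genes share their libraries.

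Other genes of replication and the cell cycle, 116 in 7 lists, gave the surroundings. Of 115 tested in K562, 50 fell (43.5%) and 14 rose (12.2%), against 23.7% and 28.2% of all genes tested. Values in brackets are mean K562 levels in control and with EVI1, then the log2 fold change. Of the origin firing factors 9 of 12 fell and 2 rose. The largest called were falls in DBF4, the activator of the CDC7 kinase (41.9 and 22.8 FPKM, -0.86, adjusted p = 4.1e-04), MCMBP, which binds the MCM complex (30.8 and 20.3 FPKM, -0.57, adjusted p = 3.7e-04), and MCM9 (6.56 and 4.42 FPKM, -0.47, adjusted p = 0.00652). Of the fork accessories 8 of 16 fell and 1 rose, with falls in RNASEH2B (28.5 and 15.2 FPKM, -0.86, adjusted p = 6.7e-04) and PCLAF, a PCNA-binding factor (116 and 68.2 FPKM, -0.80, adjusted p = 0.00883), and a rise in POLD4 (46.9 and 74.2 FPKM, 0.65, adjusted p = 1.9e-04). For nucleotide synthesis and salvage 11 of 20 fell and the rest were not called. The largest falls were in CTPS1, CTP synthase (78.2 and 50.6 FPKM, -0.62, adjusted p = 4.8e-04), CMPK1 (83.9 and 57.1 FPKM, -0.55, adjusted p = 0.00695) and DTYMK, thymidylate kinase (55.996 and 39.6 FPKM, -0.49, adjusted p = 5.4e-04).

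Regulators of the same programme fell in K562 too. In the list of E2F, pocket protein and S-phase cyclin genes 10 of 17 fell and the rest were not called. The largest falls were in FBXO5, the EMI1 inhibitor of the anaphase-promoting complex (36.9 and 15.5 FPKM, -1.21, adjusted p = 1.8e-04), CCNE2, cyclin E2 (9.49 and 4.08 FPKM, -1.05, adjusted p = 3.4e-04), and UHRF1, which recruits DNA methyltransferase to new DNA (68.9 and 37.3 FPKM, -0.85, adjusted p = 9.0e-04). Among histone chaperones 4 of 10 fell and 1 rose: HAT1 (112 and 88.8 FPKM, -0.33, adjusted p = 0.0321) and NASP (346 and 252 FPKM, -0.46, adjusted p = 0.00148) fell, and CABIN1 (25.9 and 33.0 FPKM, 0.34, adjusted p = 0.00396) rose. Among checkpoint genes 2 of 11 fell and 2 rose, or 18.2% each, below the 23.7% and 28.2% of all genes tested. The called checkpoint genes included CHEK1, the checkpoint kinase (72.8 and 50.3 FPKM, -0.52, adjusted p = 0.00179), RAD9A (27.3 and 35.9 FPKM, 0.39, adjusted p = 0.00351) and ATRIP (7.88 and 6.29 FPKM, -0.29, adjusted p = 0.0491). Among mitosis genes 6 of 29 fell (20.7%) and 8 rose (27.6%), near the shares of all genes tested. The mitosis list thus had a more even split than the 56 replication genes, and the difference between the lists was not tested. MYBL2, which drives late cell-cycle genes, had the largest called change of the mitosis list (110.2 and 64.6 FPKM, -0.76, adjusted p = 1.2e-04), followed by BUB1 (67.9 and 103 FPKM, 0.59, adjusted p = 6.2e-04) and TPX2 (93.2 and 66.3 FPKM, -0.48, adjusted p = 7.6e-04). Under the MOLM14 label, where 37 of the 116 could be named and tested, 20 rose and 6 fell, against 27.4% and 26.8% of all rows tested. DBF4 (0.44), FBXO5 (0.17) and MYBL2 (0.51) were among the rises. The 6 falls were RRM2B (-0.63), RBL2 (-0.62), NDC80 (-0.61), TFDP2 (-0.58), TTK (-0.29) and TPX2 (-0.14). Of these, TPX2 fell in K562 too and NDC80 rose there. The difference of effects was called above 0 in 24 and below 0 in 6 of these 37, against 34.1% and 30.8% of all genes tested for it.

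**Figure D5:**
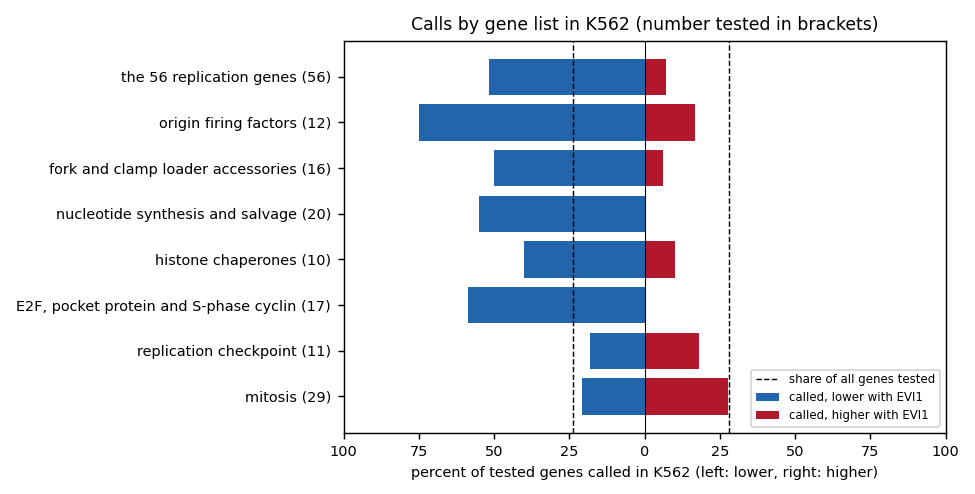
Percentage of the tested genes of each list that fell (blue, to the left) or rose (red, to the right) with EVI1 in K562, with the number tested in brackets; dashed lines mark the shares among all genes tested, 23.7% and 28.2%. The falls reach beyond the dashed line for the 56 replication genes (51.8%) and for every other list except the checkpoint (18.2%) and mitosis genes (20.7%). Among those other lists they run from 40% for histone chaperones to 75% for origin firing factors. The mitosis genes stay near the lines in both directions.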

How the data were processed

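Gene expression was measured by RNA sequencing in 12 human cell line libraries of 4 groups, made from total RNA with TruSeq reagents per the labels. The extraction protocol names small intestine of mouse, which goes against the human cell lines of the other labels. Of 12 human gut epithelium markers 3 (VIL1, KRT8 and EPCAM) were at 1 FPKM or more and 6 at 0 in both K562 groups. The list summed to 508 to 603 FPKM in control and 805 to 868 FPKM in EVI1 libraries. That sum is mostly KRT8, with means of 490 and 806 FPKM. VIL1 had means of 1.02 and 2.03 FPKM, and EPCAM, which fell, had 53.8 and 26.2 FPKM. The deposited values are FPKM per gene, which the authors made with STAR, Cufflinks and Cuffnorm on hg38 (GRCh38), per the submitters' processing notes, with no version, strand setting or annotation given in the sources used here.

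To check row alignment, the control means of K562 and of the MOLM14 label were correlated over 275 windows of 20 rows. Pearson's r was never under 0.883 (median 0.978) before row 5511, the first with an identifier of a pseudoautosomal Y copy, and it was 0.0414 in the 500 rows after it. MOLM14 columns were used by name only above that row. Control and EVI1 columns of that label stayed in step in all 106 windows of 500 rows that held enough expressed rows. The members and lists were chosen with earlier results of these data known.

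Values were tested as log2(FPKM + 1) with limma 3.58.1 (R 4.3.3; Python 3.11.15, pandas 2.3.3, NumPy 2.4.6), a moderated two-sided test with a mean-variance trend. Genes were kept where 3 or more libraries reached 1 FPKM, and p-values were adjusted over all rows of the fit. Each label had its own fit of 6 libraries, and the difference of effects was fitted over all 12. FPKM are not counts, so no counting interval is given. The depth of the K562 libraries was recovered from FPKM steps of single-transcript genes, with 94.9% to 96.1% of low values within 0.05 log2 of a whole fragment. Per-library values are given for up to 3 called members per role with the largest K562 change and for several members under both labels, and ranges for the rest; up to 3 called genes are named per other list. Exon overlaps come from GENCODE 29, which held the exact identifier version of 52 of the 56 genes; 24 members share exon bases with another gene. Alternatives were a pseudocount of 0.1, no filter, scaling to a common sum, median ratio and quantile scaling, no trend, a replicate block and leaving out each library. The pipeline was tested on simulated data.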

Additional observations from a re-analysis of the deposited data

Results flagged for a closer look

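The EVI1 effect of 20 of the 31 replication genes tested differed between the cell line labels by limma's test of the difference itself (adjusted p under 0.05 over 3697 genes). Among all 3697 genes the difference was called above 0 in 34.1% and below 0 in 30.8%. A called difference was thus common, and what set these 20 apart was their shared direction. Each value is the log2 fold change in the libraries labelled MOLM14 minus that in K562, on the log2(FPKM + 1) scale: GINS1 1.11, MCM4 1.01, POLA1 0.99, E2F1 0.95, GMNN 0.94, RFC2 0.94, MCM3 0.91, MCM10 0.81, RPA3 0.77, CDC45 0.71. The other 10 were smaller, namely CLSPN 0.70, POLD3 0.61, ORC2 0.56, CDC6 0.56, MCM6 0.47, POLD2 0.47, LIG1 0.41, MCM5 0.33, POLE2 0.32 and E2F2 0.31. All 20 were above 0, and those of MCM5, E2F2, LIG1 and POLE2 lost their call in some alternative. Within groups of 3, no search was made for single libraries that stand apart, but each library was left out in turn, with the counts given below.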

How the results depend on the processing

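The number of K562 falls among the 56 genes was 29 as deposited, 30 with a pseudocount of 0.1, 26 with no filter, 33 with median ratio, 29 with quantile, 24 with no trend, and 18 with common-sum scaling, under which 2167 genes in all fell and 4127 rose against 3265 and 3898 as deposited. The sums rest partly on mitochondrial genes listed at 0 beside at least 10 FPKM in other libraries, 3 in K562 control replicate 2 and 6 in K562 EVI1 replicate 1. Leaving out single libraries gave 19 to 29 falls and 4 to 6 rises in K562, the lowest count of falls without control replicate 1; 16 to 18 rises and 0 to 0 falls under the MOLM14 label; and 17 to 21 differences above 0. Calls held in every alternative for 22 of 33 genes in K562, 15 of 18 under the MOLM14 label and 16 of 20 differences. CDC6, CDC45, CLSPN, FEN1, GINS1, GMNN, MCM3, MCM4, MCM6, MCM7 and TIMELESS lost the K562 call somewhere; LIG1, ORC6 and POLD1 lost that under the MOLM14 label. The cause was not tested.

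Same-numbered libraries did not visibly deviate together (correlations -0.215, -0.0517, 0.126, -0.00874, -0.0252, -0.0534). The numbers thus gave no sign of pairing, but 3 libraries per group cannot exclude it. With the replicate block, 4 genes rose and 24 fell in K562, 17 rose and 0 fell under the MOLM14 label, and 21 differences were above 0.

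Signs turned only in genes without a call. In K562 this was MCM2 (-0.015) and ORC6 (-0.012) with median ratio, ORC1 (0.063), ORC3 (0.032), CHAF1A (0.014) and RNASEH2A (0.061) with common sum, and RNASEH2A (0.015) with quantile. Under the MOLM14 label it was POLD2 (-0.049) with quantile, and TIMELESS (0.0043) and RPA2 (0.00090) with median ratio. In the difference it was RFC1 (0.052), ORC1 (0.043) and ORC4 (0.062) with median ratio, and RPA2 with common sum (-0.028) and quantile (-0.037). With single libraries left out, log2 fold changes spanned 0 in K562 for RFC1 (-0.20 to 0.0061), MCM2 (-0.029 to 0.089), ORC1 (-0.069 to 0.035), ORC6 (-0.038 to 0.084), RNASEH2A (-0.054 to 0.018), DUT (-0.14 to 0.0051), ORC3 (-0.096 to 0.080), CHAF1A (-0.13 to 0.033), under the MOLM14 label for POLD3 (-0.036 to 0.10), POLD2 (-0.0032 to 0.10), TIMELESS (-0.043 to 0.010), RPA2 (-0.034 to 0.00022), and in the difference for RFC1 (-0.099 to 0.11), ORC1 (-0.061 to 0.043), ORC4 (-0.087 to 0.086). Depth is known for K562 alone, and 3 libraries per group limit the size of change that can be called.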
